A study of Homo sapiens with 47 samples.

Results

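Protocadherins are the largest family of cadherin-related adhesion receptors, single-pass membrane proteins whose extracellular cadherin repeats bind the same protein on a neighbouring cell. The clustered members lie in 3 tandem arrays (PCDHA, PCDHB and PCDHG), and in neurons each cell expresses a small set of them from promoters that are chosen largely at random, which gives the cell a surface identity. In the alpha and gamma arrays each variable exon carries its own promoter and is spliced to constant exons shared by the whole array, whereas beta members are single-exon genes without shared constant exons. The non-clustered members are separate genes, grouped by their cytoplasmic tails into delta-1 and delta-2 types, and are known from cell sorting, neural tube and somite formation and cell migration.

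The members were all protein-coding genes whose symbol begins with PCDH once the Ensembl gene identifiers had been paired with GENCODE 29 symbols. This gave 66 of the 58051 genes listed: 15 PCDHA, 16 PCDHB and 22 PCDHG members, 5 delta-1 members (PCDH1, PCDH7, PCDH9, PCDH11X and PCDH11Y), 5 delta-2 members (PCDH8, PCDH10, PCDH17, PCDH18 and PCDH19) and 3 others (PCDH12, PCDH15 and PCDH20). A further 11 pseudogene or antisense symbols were left out. Annotated on GRCh38, the PCDHA genes span chr5:140786136-141012347 and the PCDHG genes chr5:141330571-141512981, with the PCDHB genes between them. The most abundant non-clustered members were PCDH18 (chr4:137518918-137532494), PCDH19 (chrX:100291644-100410273), PCDH7 (chr4:30720415-31146805) and PCDH1, which lies just beyond the gamma array (chr5:141853111-141879246).

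The study followed H9 (WA09), an established line of human embryonic stem cells (hESCs), from pluripotency through a neuromesodermal progenitor (NMP)-like state into serially passaged cultures, by polyA RNA-seq of 47 bulk libraries. The groups were undifferentiated hESCs in mTeSR1 medium (t0), NMP-like cells after 36 h, and whole cultures at passages P1 to P10, from 3 independent differentiations each (the replicates throughout) except P9, which had 2. At P5 and P8 the cultures were also divided into epithelial (EPI) and mesenchymal (MES) fractions (3 libraries each), which the study named pre-neural progenitors (PNP) and neural crest (NC). Every group after t0 was grown in N2B27 without vitamin A and with CHIR-99021 (a WNT agonist), rhFGF2, AGN193109 (a retinoic acid receptor inverse agonist) and Y-27632 (a ROCK inhibitor). The fractions were obtained by selective detachment with TrypLE and not by a surface marker, all cells came from a single line, and in bulk RNA fewer cells of a type and less RNA per cell cannot be told apart.

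Library totals ran from 13029491 to 64082859 expected counts (median 47292229). The labels were checked against marker genes. At 36 h, 5 of 6 neuromesodermal markers (CDX1, CDX2, FST, TBXT and WNT8A) were higher than at t0, and by P5 all 3 epithelial markers (CDH1, EPCAM and ESRP1) had fallen below their 36 h level, so the epithelial fraction carried little of these genes: their summed level was 3.44 to 5.34 TPM (transcript abundance scaled to length and to the library total) in P5 EPI against 409 to 526 TPM at t0. The 8 neural crest markers summed to 523 to 689 TPM in P5 MES and 80.3 to 300.2 TPM in P5 EPI without overlap, but to 341 to 1212 TPM in P8 MES and 116 to 849 TPM in P8 EPI, which overlapped. The P10 library of differentiation 1 stood apart from the other P10 libraries, with 456 TPM of summed pluripotency markers against 3.05 and 6.23 TPM and 247 TPM of summed neural crest markers against 979 and 1014 TPM.

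The clustered promoters set the members apart in sequence, so 30 bases are shown for the 2 members with the highest and the 2 with the lowest level in each array among those that carry its motif on the plus strand before the start site. Such promoters are known for a conserved element with the core CGCT, near which CTCF binds. RefSeq promoters (GRCh38.p14, from 250 bases before to 50 bases after the start site) were matched for 58 of the 66 members. Capitals mark the motif, chosen after these sequences were seen and searched on both strands. All sequences lie on the plus strand and read 5′ to 3′.
PCDHA12: gtcacatgaTGTCGCTctacactcagaagg
PCDHA11: ggcgcaaggTGTCGCTctttacttggtgga
PCDHA5: tccacatgaTGTCGCTggacaccggaaggt
PCDHA1: gccacatgaTGTCGCTgtacaccacaaagt
PCDHB2: gacgcgggGTGGCGCTgcagccttagaagt
PCDHB16: aacgcgtgGTGGCGCTgcaggttaagatga
PCDHB12: gacgcgtgGTGGCGCTgcaggataatatca
PCDHB7: aacgcaagGTGGCGCTgctggctaaaaaga
PCDHGC3: gactctgtgtGCCGCTGTcggccaatgaag
PCDHGB6: gcctctgggcGCCGCTGTcggccagtgcag
PCDHGA8: gactgtaagcGCCGCTGTtcacctactgga
PCDHGA7: gactcacagcGCCGCTGTtcaccaaccagg

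The first of these lies at chr5:140875248-140875277, and the PCDHGC3 stretch at chr5:141475884-141475913. TGTCGCT was found in 10 of 13 PCDHA promoters, in 1 of 14 PCDHB in 3 of 20 PCDHG and in 1 of 11 non-clustered promoters, against 2.15% of the 27305 gene promoters searched. GTGGCGCT was found in 13 of 14 PCDHB promoters and in no other member's (1.38% of all genes), and GCCGCTGT in 11 of 20 PCDHG promoters and in no other member's (1.98% of all genes). Levels differed widely among members with the same letters. PCDHB2 averaged 38.3 TPM over the 47 libraries and PCDHB7 0.35 TPM with the same 8 letters, and PCDHGC3 averaged 66.6 TPM where PCDHGA7 averaged 0.09 TPM. PCDHB1, the PCDHB promoter without GTGGCGCT, averaged 0.021 TPM, and levels of members with and without a motif were not compared.

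Since reads of 75 bases were assigned by RSEM, which divides a read that fits several genes, the sequence shared between members was counted. A median of 46.5% of the 75-base windows of a PCDHA member and 43.4% of those of a PCDHG member also occurred in another gene, against 11.75% for PCDHB and 0% for the delta-2 members. Values that were not whole numbers, the mark of divided reads, made up 95.5% of PCDHA, 92.8% of PCDHB, 86.8% of PCDHG, 38.3% of delta-1 and 0% of delta-2 values. Single PCDHA and PCDHG members are therefore given with the summed level of their array. Summed counts, which were tested, do not depend on that division within the array, whereas summed TPM still does through the length of each member. PCDH11X shared 42.7% of its windows and PCDH20 95.7%, while non-whole values occurred in 95.7% of libraries for PCDH11X and 2.13% for PCDH20. The near-identical PCDH11Y is only counted.

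Protocadherins were broadly expressed: 41 of 66 members reached a mean of 1 TPM in at least 1 of the 16 groups, 19 in every group and 25 in none. PCDH11Y, annotated on chromosome Y and counted among the 41 through P3 alone, shared 43.1% of its windows with another gene. It had non-whole values in 95.7% of libraries and is therefore not read as expressed. Whether its reads came from PCDH11X was not tested. The number at or above 1 TPM was 27 at t0, 24 at P1, 32 at P5, 29 at P8 and 37 at both P9 and P10. The PCDHB array contributed most to that increase, with 7 members at t0, 3 at P1 and 12 at P9. The members together summed to between 268 and 292 TPM at t0, 491 to 502 TPM at P5, and 641 and 795 TPM at P9.

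**Figure D1:**
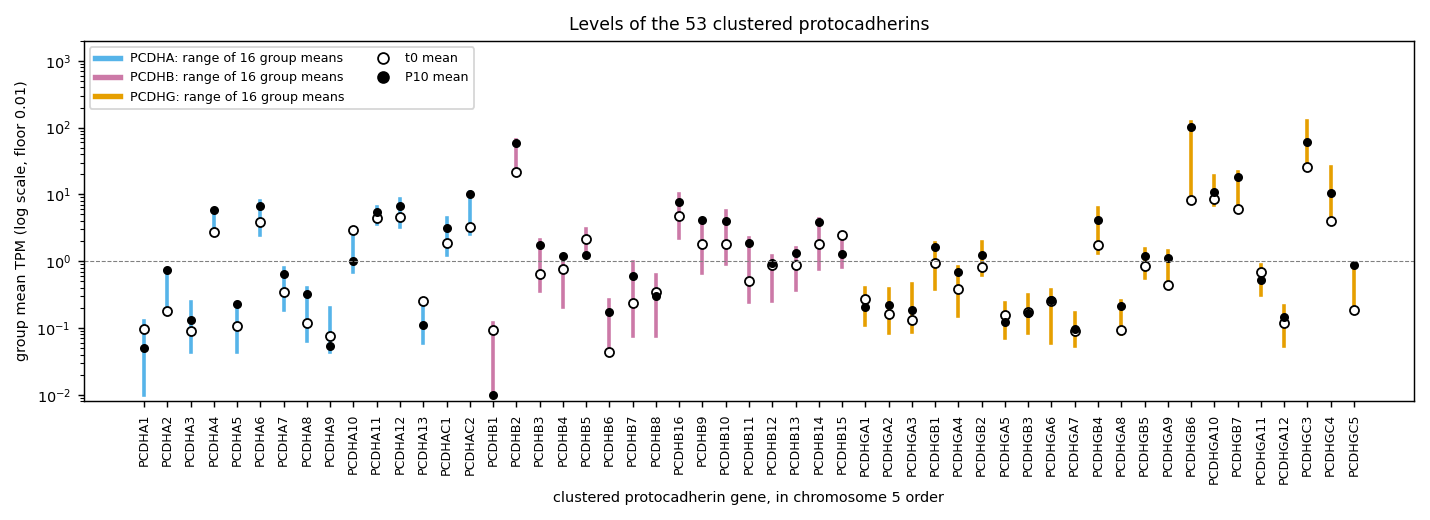
Level of each of the 53 clustered members in chromosomal order (vertical axis: group mean in TPM on a log scale, values under 0.01 drawn at 0.01); coloured bars span the 16 group means, open circles are the t0 mean and filled circles the P10 mean. PCDHB2, PCDHGB6 and PCDHGC3 stand above the rest of their arrays, and most PCDHA and PCDHG members lie below the dashed line at 1 TPM.

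Each array was dominated by a few members. PCDHB2 held the largest share of its array in all 47 libraries, from 49.1% to 75.5% (median 68.0%). In the gamma array the C-type member PCDHGC3 was the highest in 26 libraries and PCDHGB6 in the other 21. PCDHGC3 averaged 43.2% of the array at t0 and 28.7% at P10, while PCDHGB6 averaged 13.6% at t0 and 46.6% at P10. The alpha array had no such leader: PCDHAC2 was highest in 27 libraries, PCDHA11 in 10 and PCDHA6 in 6, and the PCDHAC2 share ran from 5.2% to 31.6%. Bulk RNA does not show how many members a single cell expressed.

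To ask which members changed at any point of the series, all 12 whole-culture time points entered 1 F-test in edgeR (quasi-likelihood), which took differentiation as a blocking factor. A member was called where the false discovery rate (FDR, Benjamini-Hochberg over all genes tested) was below 1%, the difference 2-fold or more and the average 100 normalized counts or more. This called 27 of 66 members, 19 of 53 clustered and 8 of 13 non-clustered, against 27.4% of all genes. The members of the alpha array ranged least: summed, they stood between 15.6 and 50.04 TPM in the 47 libraries. The summed PCDHB and PCDHG arrays passed and the summed PCDHA array, whose fitted range was 0.89 on the log2 scale, did not. Without differentiation 2 the count was 12, against 11.6% of all genes, and without differentiation 3 it was 15, against 14.9%.

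The first comparison asked what changed on the way from hESC to NMP-like cells. PCDHGC3 and PCDHGC4, C-type members at the end of the gamma array, rose. PCDHGC3, the most abundant clustered member, was at 26.5, 24.3 and 27.0 TPM at t0 and at 73.9, 76.8 and 92.5 TPM at 36 h, a rise of 3.17-fold (log2 fold change 1.66 ± 0.24 SE, edgeR adjusted p = 7.48e-05). PCDHGC4, essential for neuronal survival in mice, was at 4.75, 3.19 and 4.02 TPM at t0 and 19.6, 16.5 and 22.9 TPM at 36 h (5.48-fold, log2 fold change 2.45 ± 0.38, adjusted p = 1.39e-04). The groups did not overlap for either gene. The whole gamma array rose 2.34-fold (log2 1.22 ± 0.18, adjusted p = 9.23e-05), from 63.2, 57.3 and 59.9 TPM to 134, 146 and 167 TPM. PCDHGB6, the other abundant gamma member, went from 8.98, 7.10 and 8.45 TPM to 14.5, 15.2 and 15.1 TPM and was not called (1.77-fold, adjusted p = 0.048).

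The beta array moved the other way in part. PCDHB14 fell from 1.75, 1.63 and 1.98 TPM to 0.65, 0.91 and 0.74 TPM (log2 fold change -1.41 ± 0.25, adjusted p = 6.32e-04), again without overlap. The PCDHB members had a median log2 fold change of -0.64, with 14 of 16 below 0 and 8 of 16 lower in normalized counts without overlap between the groups, against 21.6% of all genes. PCDHB2 was at 23.6, 22.1 and 18.2 TPM and then at 15.7, 27.5 and 19.7 TPM, with no difference beyond the spread, and the summed array was not called (log2 -0.30 ± 0.19, adjusted p = 0.33). No PCDHA member was called. In all, 3 of 66 members were called at 36 h (2 higher, 1 lower), against 2.71% of all genes (1.33% higher and 1.37% lower). DESeq2 called 5 members, against 4.05%, and edgeR at an FDR under 5% also 5, against 4.43%. All 3 calls, and that of the summed gamma array, were lost without differentiation 3, where log2 fold changes were 1.57 for PCDHGC3, 2.24 for PCDHGC4 and -1.29 for PCDHB14 and 0.436% of all genes were called. PCDHB14 and the summed gamma array also lost their calls without differentiation 2 (0.368% of all genes), and PCDHB14 without the block and in a fit of only the compared libraries.

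**Figure D2:**
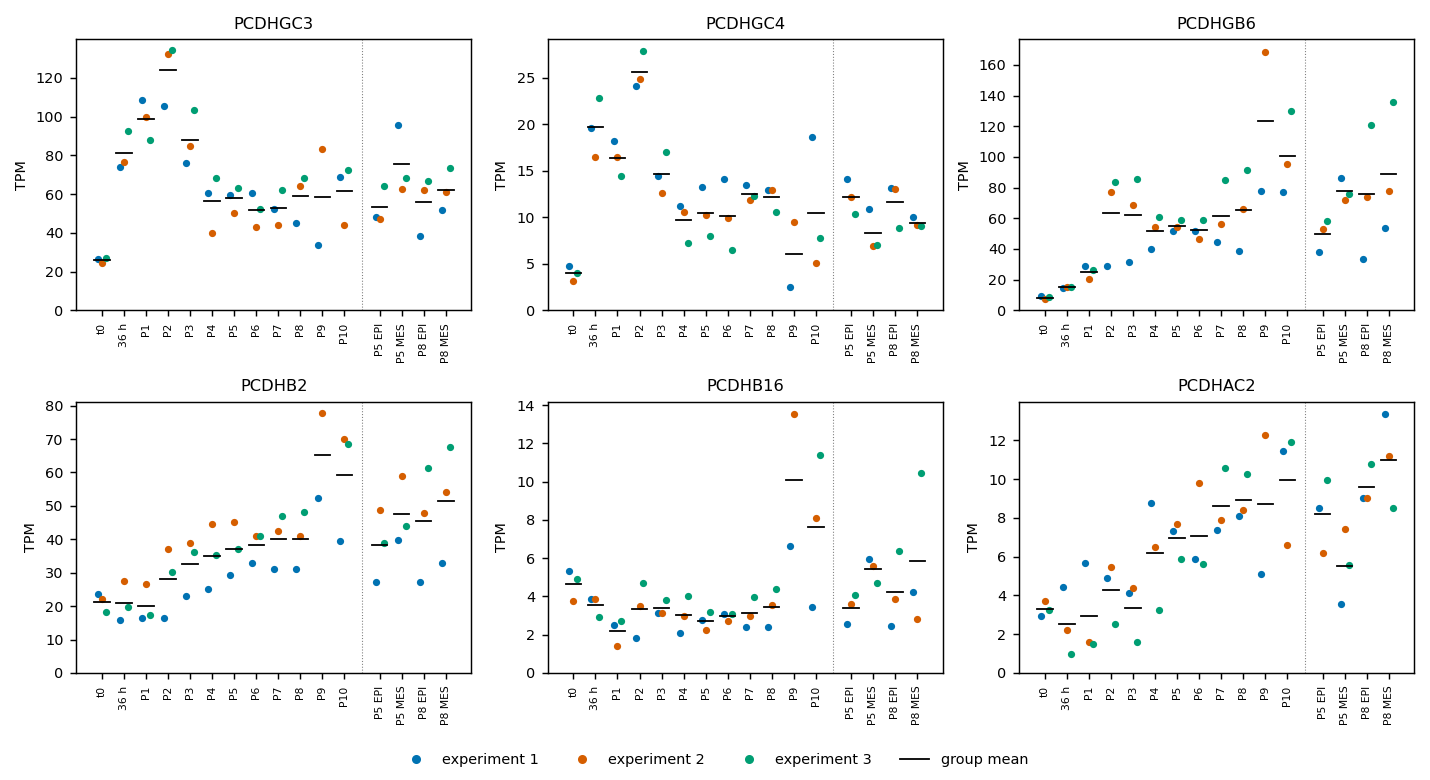
Level (TPM) of PCDHGC3, PCDHGC4, PCDHGB6, PCDHB2, PCDHB16 and PCDHAC2 in each library by time point, with the fractions right of the dotted line; points are libraries, coloured by experiment (differentiation), and lines are group means. PCDHGC3 peaked at P2 (105 to 134 TPM), whereas PCDHGB6 reached its highest group means at P9 and P10 (77.2 to 169 TPM).

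No delta-2 member was called at 36 h, although PCDH10 and PCDH19 had the largest fitted differences of all members. PCDH10, which binds the WAVE actin regulator, went from 1.10, 3.24 and 1.20 TPM to 51.3, 76.0 and 31.8 TPM. All 3 differentiations were far above t0, yet the adjusted p was 0.015 (log2 fold change 4.82 ± 1.29), and DESeq2 called it (adjusted p = 2.30e-04). PCDH19, mutated in an X-linked epilepsy, was at 1.73, 2.13 and 1.43 TPM at t0 and at 3.52, 7.47 and 34.3 TPM at 36 h (adjusted p = 0.068 with edgeR and 0.0067 with DESeq2). The third differentiation stood apart from the others here, and it was also lowest for PCDH1, at 39.5, 33.0 and 6.55 TPM after 108, 102 and 107 TPM at t0 (adjusted p = 0.23). Its 36 h library held 1479 TPM of summed pluripotency markers, against 3339 and 2371 TPM in the others. Summed paraxial mesoderm markers stood at 633 TPM in that library, against 12.2 and 132 TPM.

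**Figure D3:**
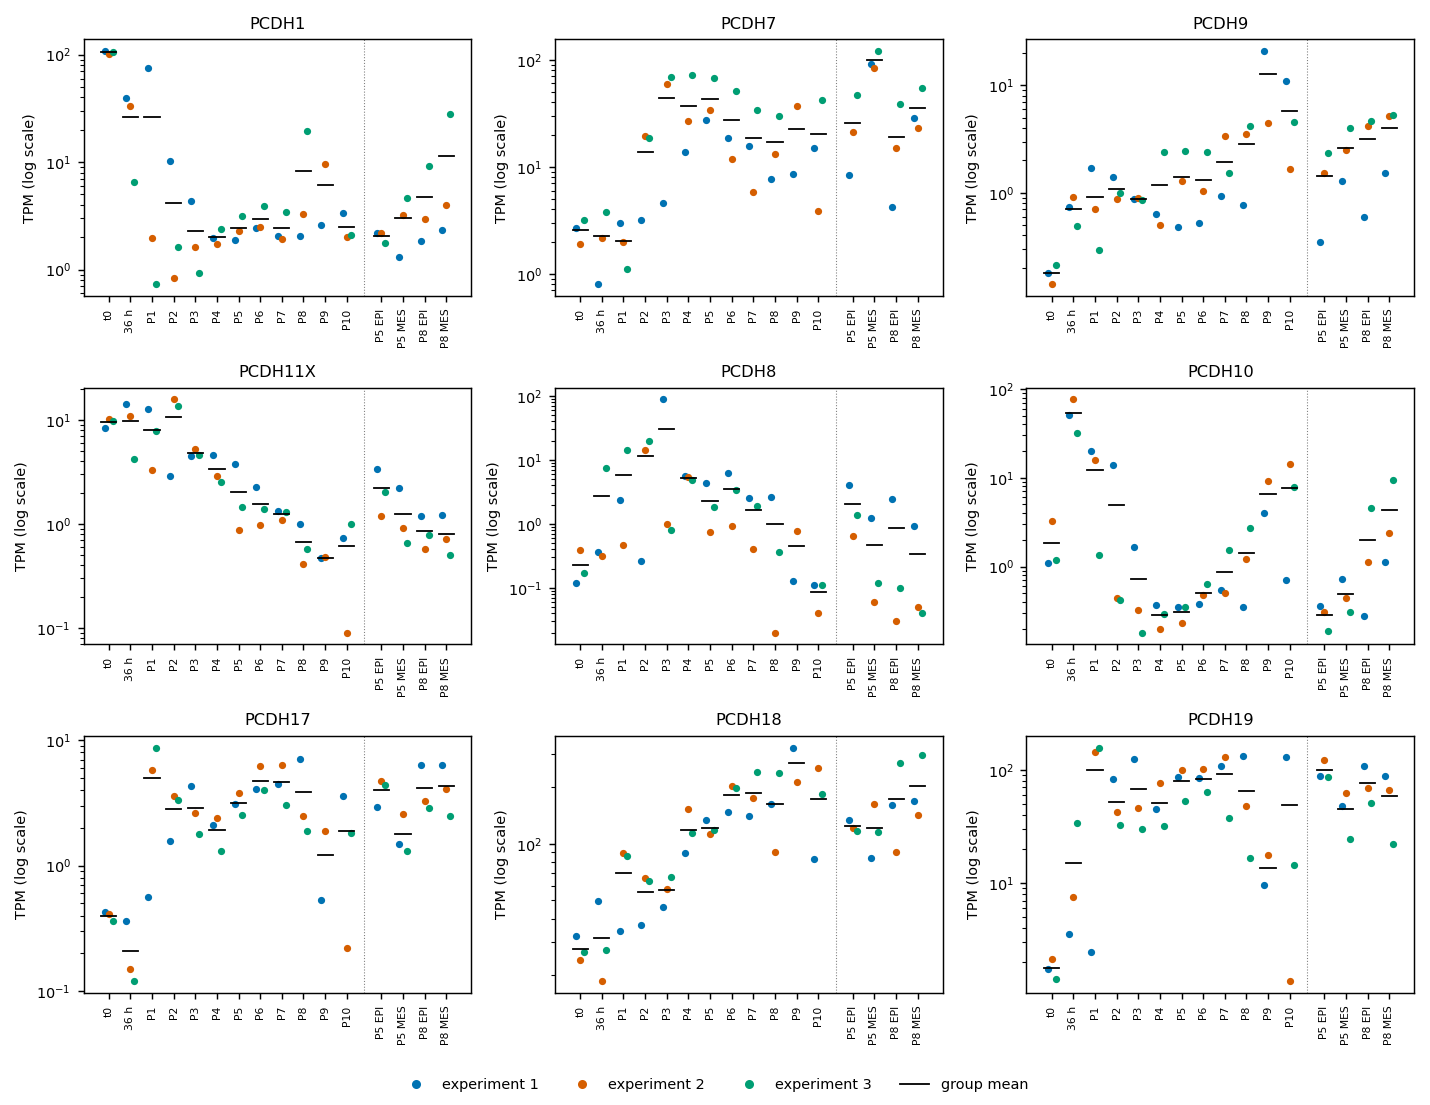
Level (TPM, log axis) of the 9 non-clustered members PCDH1, PCDH7, PCDH9, PCDH11X, PCDH8, PCDH10, PCDH17, PCDH18 and PCDH19 in each library by time point, with the fractions right of the dotted line; points are libraries, coloured by experiment, and lines are group means. PCDH1 stood at 102 to 108 TPM at t0 and at 1.90 to 3.18 TPM at P5, PCDH10 peaked at 36 h, and PCDH7, PCDH18 and PCDH19 were above 25 TPM in every P5 library.

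The next comparison followed the passaging of the NMP-like cells. Between 36 h and P5, 10 of 66 members were called (6 higher, 4 lower), against 8.33% of all genes (3.78% higher and 4.54% lower). Of the 13 non-clustered members 3 rose and 2 fell. PCDH7, a delta-1 receptor, rose from 0.80, 2.17 and 3.81 TPM to 27.1, 33.7 and 67.6 TPM (19.1-fold, log2 fold change 4.26 ± 0.83, adjusted p = 3.74e-04). PCDH18 rose from 49.4, 18.6 and 27.1 TPM to 134, 113 and 118 TPM (3.58-fold, adjusted p = 9.62e-04) and was then the most abundant protocadherin. PCDH17, a synaptic and axonal receptor, rose from 0.36, 0.15 and 0.12 TPM to 3.11, 3.77 and 2.52 TPM (14.2-fold, adjusted p = 0.00157). For these 3 genes every P5 library lay above every 36 h library.

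PCDH10 fell by the widest margin, to 0.35, 0.23 and 0.35 TPM at P5 (log2 fold change -7.54 ± 1.48, adjusted p = 4.23e-04). PCDH11X fell from 14.3, 10.9 and 4.19 TPM to 3.78, 0.87 and 1.44 TPM (log2 -2.38 ± 0.61, adjusted p = 0.0043). PCDH1 was at 1.90, 2.27 and 3.18 TPM at P5 and was not called by edgeR (log2 -3.55 ± 1.19, adjusted p = 0.024), while DESeq2 called it (adjusted p = 0.0028). PCDH19 reached 87.1, 101 and 53.6 TPM at P5, above every 36 h library, and was not called against 36 h. Its rise came at different times, since at P1 it stood at 143 and 156 TPM in differentiations 2 and 3 and at 2.47 TPM in differentiation 1, which reached 82.6 TPM at P2.

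PCDH8, a delta-2 member known as a paraxial mesoderm gene, showed the same lack of synchrony. It peaked at 87.4 TPM in differentiation 1 at P3, where the others stood at 1.01 and 0.79 TPM, and at 14.2 and 19.4 TPM in differentiations 2 and 3 at P2, where differentiation 1 stood at 0.26 TPM. PCDH1 was still at 75.6 TPM at P1 in differentiation 1 and at 1.96 and 0.73 TPM in the others. Group means of these genes at P1 to P3 therefore mix high and low libraries.

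Among the clustered members, PCDHGB6 rose from 14.5, 15.2 and 15.1 TPM at 36 h to 51.7, 54.3 and 58.6 TPM at P5 (3.40-fold, log2 fold change 1.77 ± 0.28, adjusted p = 3.95e-05), and kept its call without any one differentiation. The summed gamma array was not called between these points (log2 0.04 ± 0.18, adjusted p = 0.88), with group means of 149 TPM at 36 h, 175 TPM at P1, 259 TPM at P2, 206 TPM at P3 and 156 TPM at P5. PCDHGC3 stood at 59.8, 50.2 and 63.4 TPM at P5 (log2 -0.80 ± 0.24, adjusted p = 0.012). PCDHB14 returned to 1.62, 2.12 and 2.21 TPM (2.53-fold, adjusted p = 2.77e-04) and PCDHB10 went from 0.85, 1.05 and 0.80 TPM to 1.95, 1.99 and 2.98 TPM (2.30-fold, adjusted p = 0.0065). PCDHB5 fell from 1.61, 4.73 and 2.66 TPM to 0.88, 1.74 and 1.26 TPM (adjusted p = 0.0017) with overlapping groups, and PCDHA10 from 2.90, 3.29 and 2.30 TPM to 0.96, 1.41 and 1.36 TPM (adjusted p = 0.0024), where the summed alpha array was not called (log2 0.29 ± 0.18, adjusted p = 0.22). Without differentiation 2, PCDH7 and PCDHGB6 kept their calls (3.43% of all genes), and without differentiation 3, PCDH10, PCDHA10 and PCDHGB6 did (4.6%). PCDHB10 and PCDHA10 also lost theirs without differentiation 1, PCDHB5, PCDHB10 and PCDHA10 without the block, and PCDHB10 without a count filter.

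Between P5 and P8 no protocadherin was called by edgeR or by DESeq2, where edgeR called 0.0092% and DESeq2 0.713% of all genes. The 3 members PCDHA10, PCDH11X and PCDHA12 had an unadjusted edgeR p under 0.05, against 13.3% of all genes. PCDH7 was at 7.69, 13.0 and 29.99 TPM at P8, below its P5 level in each differentiation (log2 fold change -1.43 ± 0.73, adjusted p = 0.41).

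The late passages were compared with P8, the last passage at which fractions were taken. P9 and P10 together had 5 members higher than P8 and none lower, against 0.772% of all genes called higher and 0.474% called lower, and all 5 were beta members. PCDHB13 rose 3.53-fold (log2 fold change 1.82 ± 0.41, adjusted p = 0.0080), from 0.27, 0.43 and 0.66 TPM at P8 to 1.19 and 1.98 TPM at P9 and 0.36, 1.98 and 1.67 TPM at P10. PCDHB9 rose 3.02-fold (adjusted p = 0.0068), PCDHB16 2.90-fold (adjusted p = 0.0030), PCDHB10 2.63-fold (adjusted p = 0.0066) and PCDHB14 2.44-fold (adjusted p = 0.0027). PCDHB16 was at 2.38, 3.53 and 4.39 TPM at P8, at 6.64 and 13.6 TPM at P9 and at 3.46, 8.09 and 11.4 TPM at P10. Every differentiation went up for each of these genes, and the P10 library of differentiation 1 was the lowest of the late libraries for all 5. These 5 members shared 9.24% (PCDHB14) to 29.1% (PCDHB10) of their windows with another gene and had non-whole values in 100% of libraries.

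The rest of the beta array lay on the same side. In 15 of 16 PCDHB members the log2 fold change was above 0 (median 1.27), and 13 of 16 were higher in every differentiation (log2 normalized counts, P9 and P10 averaged), against 21.4% of all genes. PCDHB2 went from 31.0, 40.9 and 48.2 TPM at P8 to 52.3 and 77.9 TPM at P9 and 39.5, 70.0 and 68.4 TPM at P10. Its fold change of 1.69 was under the 2-fold minimum although its adjusted p was 0.0033. The summed beta array stood at 42.4, 55.2 and 69.8 TPM at P8, at 80.9 and 126 TPM at P9 and at 54.99, 104 and 110 TPM at P10 (1.94-fold, log2 0.96 ± 0.17, adjusted p = 0.0029), also just under 2-fold.

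The gamma array had a smaller fold change, and that of the alpha array was within its error. In 21 of 22 PCDHG members the log2 fold change was above 0 (median 0.79), and the summed array had a log2 fold change of 0.64 ± 0.17 (adjusted p = 0.018). PCDHGB6 was at 38.6, 65.8 and 91.5 TPM at P8, at 77.9 and 169 TPM at P9 and at 77.2, 95.7 and 130 TPM at P10 (adjusted p = 0.024). The summed alpha array had a log2 fold change of -0.02 ± 0.16 (adjusted p = 0.96), and 10 of 15 PCDHA members were above 0 (median 0.27). The median over all genes was -0.01. The 5 C-type members shared no direction and none was called. PCDHGC3 (log2 0.06 ± 0.22, adjusted p = 0.91) and PCDHGC5 (0.77 ± 0.61, adjusted p = 0.46) had estimates above 0, and PCDHAC1 (log2 -1.10 ± 0.37, adjusted p = 0.058), PCDHAC2 (-0.93 ± 0.44, adjusted p = 0.17) and PCDHGC4 (-0.65 ± 0.32, adjusted p = 0.20) had estimates below 0. In log2 normalized counts, with P9 and P10 averaged, the latter 3 were lower in every differentiation, although the P10 library of differentiation 1 lay above its P8 library for each. PCDHAC2 was not lower in TPM, at 8.12, 8.43 and 10.3 TPM at P8, 5.12 and 12.3 TPM at P9 and 11.4, 6.58 and 11.9 TPM at P10. Whether the arrays differed from each other was not tested.

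**Figure D4:**
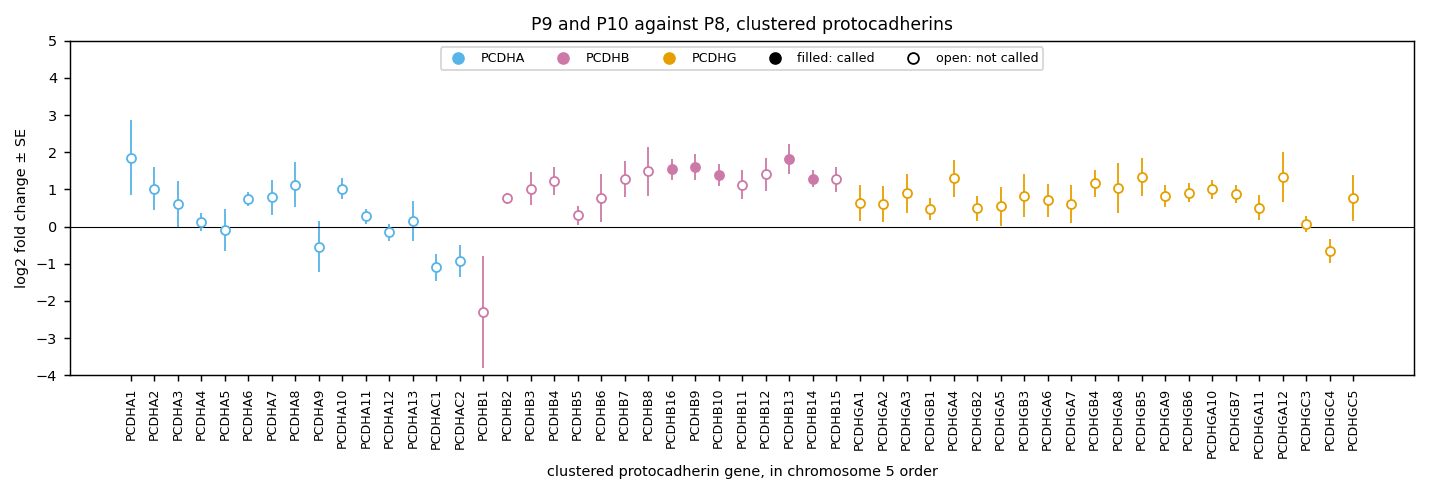
Log2 fold change of P9 and P10 against P8 for the 53 clustered members, in their chromosomal order within each array; points are edgeR estimates with bars of 1 SE, filled for called members. The 5 called members are all in PCDHB, and 46 of the 53 estimates lie above 0.

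Summed marker levels also differed between these passages. The 8 neural crest markers summed to 150 to 880 TPM at P8, to 1125 and 1134 TPM at P9 and to 247, 979 and 1014 TPM at P10, and the 7 mesenchymal markers to 1893 to 3765 TPM at P8, 5010 and 6012 TPM at P9 and 2262, 4517 and 6486 TPM at P10. The 5 pluripotency markers summed to 181 to 1008 TPM at P8 and to 9.53 and 14.1 TPM at P9. No neural crest or mesenchymal marker was called, and LIN28A, lower, was the only pluripotency marker called. The crest sum did not stand for its whole list. From P8 to P9, mean TWIST1 went from 80.2 to 494 TPM, SNAI2 from 82.5 to 358 TPM and TFAP2A from 8.36 to 89.3 TPM. The means of SOX10, SOX9, FOXD3, TFAP2B and ETS1 were lower at P9, with SOX9 at 98.3 and then 30.8 TPM. Without the P10 library of differentiation 1, 8 members were called against 4.64% of all genes, PCDHB15, PCDHA10 and PCDHGA10 in addition. Without differentiation 2 or 3 no member and no gene was called, and without the block no member and 0.17% of all genes, and without a count filter 2 members (PCDHB14 and PCDHB16) and 0.593% of all genes, whereas DESeq2 called 9 (3.4% of all genes) and edgeR at an FDR under 5% also 9 (3.61%). The part of culture make-up in the beta rise was not tested.

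Non-clustered members were divided at the late passages. PCDH9 was at 0.77, 3.52 and 4.17 TPM at P8, at 20.9 and 4.50 TPM at P9 and at 11.03, 1.68 and 4.52 TPM at P10, so that differentiation 1 alone was high. PCDH10 stood at 0.35, 1.21 and 2.75 TPM at P8, at 4.00 and 9.19 TPM at P9 and at 0.70, 14.4 and 7.94 TPM at P10. PCDH19 was at 133, 47.7 and 16.6 TPM at P8, at 9.60 and 17.5 TPM at P9 and at 130, 1.36 and 14.4 TPM at P10. The P10 library of differentiation 1 was again apart from the other P10 libraries, and for PCDH19 it was near the P8 level of that differentiation. PCDH12, known from endothelium, was at 0 TPM in all 3 P1 libraries and reached 4.41 TPM in a single P10 library, with every other library below 1.2 TPM. PCDH20 was at 0.14, 1.77 and 0.54 TPM at P8 and at 1.60 and 1.68 TPM at P9. At P10 it was at 1.27, 2.88 and 2.74 TPM, and it was not called (log2 fold change 1.42).

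The fractions asked which receptors separate mesenchymal from epithelial cells of the same culture. With edgeR no gene of the 18885 tested passed the 1% threshold at P5, so 0% of genes and 0 of 63 members were called. Of the members, 32 had an unadjusted p under 0.05, against 25.9% of all genes, and 8 an FDR under 5%, against 7.89%. Without the block these were 16 and 0, and an FDR under 5% was reached by 3 members without differentiation 1 and by 0 without differentiation 2 or 3. Other fits gave more: 40 and 25 of 62 members with only the compared libraries, and 35 and 22 with DESeq2. The share of all genes passing these 2 rules is not given for these alternatives, so their counts are not read against it. At the 1% threshold each of the edgeR alternatives named here called 0 members and 0% of all genes. DESeq2 called 7 (6 higher and 1 lower in MES), against 3.57% of all genes. At an FDR under 5% with the same fold and mean minimum 6 passed, against 2.66%.

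Delta members stood on both sides: at P5, 4 of 5 delta-1 and 2 of 5 delta-2 members had a log2 fold change above 0. PCDH7 was at 8.41, 20.9 and 47.0 TPM in P5 EPI and 91.8, 84.0 and 120 TPM in P5 MES, without overlap (5.07-fold higher, log2 2.34 ± 0.52, edgeR adjusted p = 0.035, DESeq2 adjusted p = 2.23e-05). PCDH9 was at 0.35, 1.54 and 2.37 TPM in EPI and 1.29, 2.52 and 4.05 TPM in MES (adjusted p = 0.049). On the other side, PCDH19 was at 88.4, 122 and 87.2 TPM in EPI and 48.1, 62.9 and 24.4 TPM in MES (log2 -1.28 ± 0.32, adjusted p = 0.047), and PCDH8 at 4.09, 0.65 and 1.40 TPM in EPI and 1.22, 0.06 and 0.12 TPM in MES (log2 -3.46 ± 0.65, adjusted p = 0.023, mean under 100 normalized counts). PCDH17 was also lower in MES in each differentiation (log2 -1.12 ± 0.37, adjusted p = 0.10). Leaving out 1 differentiation at a time gave log2 fold changes from 1.73 to 2.74 for PCDH7 and from -4.54 to -2.87 for PCDH8. PCDH18 was at 134, 121 and 118 TPM in EPI and 83.8, 163 and 115 TPM in MES, with no shared direction. Nor had PCDH1, at 2.19, 2.19 and 1.75 TPM in EPI and 1.31, 3.22 and 4.59 TPM in MES. PCDH10 was low in both, at 0.36, 0.31 and 0.19 TPM in EPI and 0.73, 0.44 and 0.31 TPM in MES. PCDH11X was at 3.39, 1.18 and 2.03 TPM in EPI and 2.20, 0.91 and 0.66 TPM in MES.

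The clustered members leaned towards MES. At P5, 46 of 51 had a log2 fold change above 0 (median 0.76, against 0.00 over all genes), and 40 of all 63 members were higher in MES in every differentiation in normalized counts, against 29% of all genes. On that scale the groups did not overlap for 30 members, against 15.9% of all genes. Those with DESeq2 calls were PCDHA10, PCDHB9, PCDHGA10 and PCDHGB7. PCDHGA10 was at 2.84, 10.97 and 9.69 TPM in EPI and 13.9, 22.7 and 19.3 TPM in MES (2.82-fold, edgeR adjusted p = 0.033). PCDHGB7 was at 8.47, 9.21 and 13.1 TPM in EPI and 26.1, 16.3 and 22.1 TPM in MES (2.26-fold, adjusted p = 0.024). The dominant PCDHB2 differed little, at 27.3, 48.7 and 38.9 TPM against 39.7, 58.9 and 44.1 TPM (1.35-fold, adjusted p = 0.21).

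Some members went the other way. PCDHAC2 was at 8.49, 6.20 and 9.94 TPM in P5 EPI and 3.57, 7.40 and 5.58 TPM in P5 MES (log2 -0.66 ± 0.18, adjusted p = 0.063), and PCDHGC4 at 14.1, 12.2 and 10.4 TPM against 10.9, 6.90 and 7.02 TPM (log2 -0.62 ± 0.17, adjusted p = 0.061). Neither was called, and PCDHGC3, another C-type member, was higher in MES in every differentiation in normalized counts (log2 0.47 ± 0.22, adjusted p = 0.23). The summed arrays had log2 fold changes of 0.24 ± 0.09 (PCDHA), 0.60 ± 0.22 (PCDHB) and 0.70 ± 0.25 (PCDHG), with adjusted p of 0.13, 0.13 and 0.12.

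**Figure D5:**
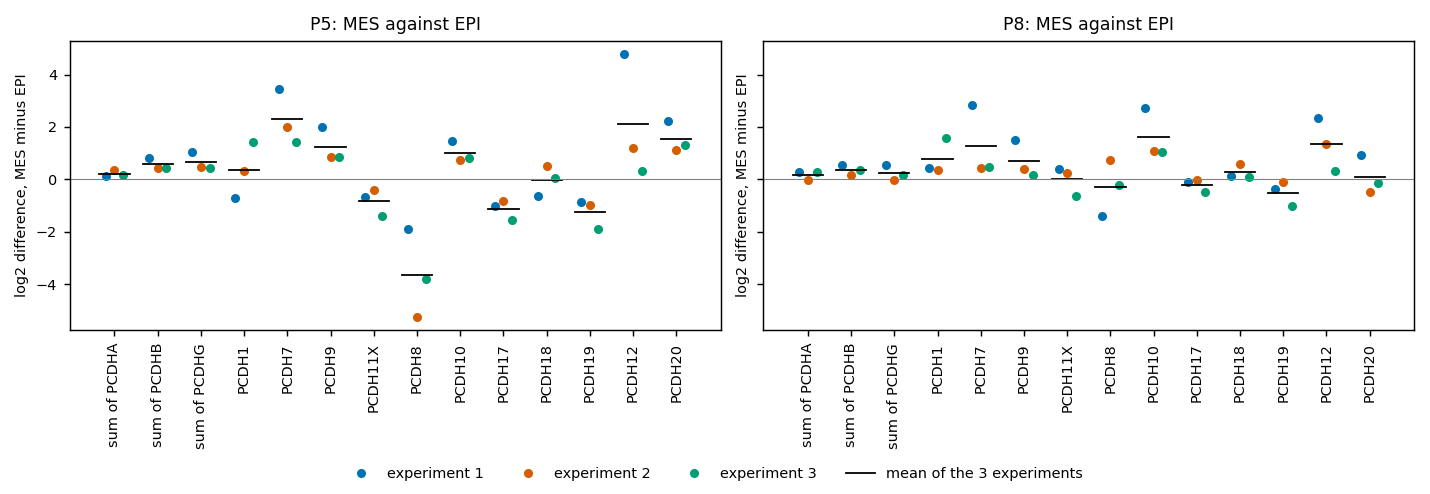
Log2 difference in normalized counts of MES and EPI fractions of the same differentiation at P5 and P8 for the 3 summed arrays and 11 non-clustered members; points are differentiations (experiments) and black lines their mean. PCDH7 lies above 0 and PCDH19 below 0 in every differentiation at both passages.

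At P8 no member was called by edgeR or DESeq2 (0% of all genes with edgeR and 0.291% with DESeq2), and 13 members had an unadjusted edgeR p under 0.05, against 12% of all genes. PCDH7 was at 4.22, 14.9 and 38.2 TPM in EPI and 28.4, 23.1 and 54.5 TPM in MES (log2 1.17 ± 0.51, adjusted p = 0.42). Its log2 fold change ran from 0.48 to 1.65 when 1 differentiation was left out. In normalized counts all 15 tested PCDHB members were higher in MES in every differentiation, and so were 39 of all 63 members, against 20.5% of all genes, but the groups overlapped for all of the beta members. In TPM, PCDHB15 was lower in MES in differentiations 1 and 2 and PCDHB16 in differentiation 2. The P5 and P8 differences were compared in an interaction test, which called no member and gave 5 with an unadjusted p under 0.05, against 6.1% of all genes (DESeq2 also called no member and 0.0053% of all genes).

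Lists of genes known to act on the family were also read. Of 18 factors that act at clustered promoters and enhancers, such as CTCF and the cohesin subunits, the DNA methyltransferase DNMT3B was the only one called at 36 h (log2 -1.20 ± 0.26, adjusted p = 0.0034), and it was also lower at P5 against 36 h (log2 -2.02 ± 0.27) and at P9 and P10 against P8 (log2 -1.35 ± 0.23). Its mean level was 483 TPM at t0, 224 TPM at 36 h, 61.7 TPM at P5 and 13.1 TPM at P9. The cohesin subunit STAG1 rose at P5 (log2 1.05 ± 0.12), from 24.4 to 54.8 TPM, and CTCF stayed between 60.2 and 80.1 TPM in the whole-culture group means. In the 4 successive comparisons NCKAP1 was called of the 11 WAVE complex genes, lower at P5 (log2 -1.07 ± 0.10), and RET of the 10 kinases and proteases, lower at P5 (log2 -4.02 ± 0.97). The test of any change called 3 of the 18 factors (DNMT3B, STAG1 and WIZ), 2 of the 11 WAVE genes (NCKAP1 and WASF3) and 2 of the 10 kinases and proteases (PTK2B and RET), against 27.4% of all genes. CTNNB1 was not called.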

How the data were processed

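RNA of 47 libraries of H9 cells was sequenced as 75-base single reads after polyA selection. Per the submitters' processing notes, the authors used cutadapt 1.16, STAR 2.5.2b and RSEM 1.3.0 on GRCh38. The annotation release, strand setting and filters were not given in the sources used here. The deposited values were RSEM expected counts per gene and TPM, both by the authors. Expected counts were rounded to whole numbers. Identifiers were paired with GENCODE 29 symbols (57447 of 58051).

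Counts were fitted in edgeR 4.0.16 (R 4.3.3, limma 3.58.1) with TMM scaling, the filterByExpr filter on low counts and the differentiation as a block, in one fit of 35 whole cultures and one of 12 fractions. P-values were adjusted over all genes tested (21750 and 18885). Following the study's thresholds, a gene was called at an FDR under 1% where it differed 2-fold or more and averaged 100 or more normalized counts over the compared libraries. Its exact model was not given in the sources used here. DESeq2 1.42.0 was an alternative. Summed arrays were tested as single rows. Cross-gene levels are TPM. Error terms after ± are standard errors of log2 fold changes. The steps were tested on simulated data. Alternatives were other thresholds, no block, DESeq2 or its size factors, no count filter, each differentiation left out and other sets of libraries in the fit.

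The pairing of replicate numbers comes from the study's design, in which each number is 1 differentiation. Over 13297 genes, deviations of same-numbered libraries correlated at -0.01 between t0 and 36 h, 0.11 between 36 h and P5, 0.30 between P5 and P8, 0.01 between P8 and P9, 0.24 between P8 and P10, and 0.64 and 0.77 between the P5 and P8 fractions. Named genes were the non-clustered members and the 2 most abundant of each array, with no level given for PCDH11Y and PCDH15. Up to 10 called members per comparison with one direction in every differentiation were also named. PCDHGA10, PCDHGB7 and the other members not called were named after their values were seen. The members and gene lists were chosen with earlier results of these data known.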

Additional observations from a re-analysis of the deposited data

How the results depend on the processing

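The counts of called members depended on the differentiations and thresholds. With an FDR under 5%, 5 members were called at 36 h against t0, 9 at P9 and P10 against P8 and 6 for the P5 fractions, and with DESeq2 these were 5, 9 and 7. Leaving out 1 differentiation at a time, with 21110 to 22526 genes tested, gave 0 to 4 members at 36 h (83 to 891 genes). It gave 2 to 10 members at P5 against 36 h (773 to 1921 genes) and 0 to 5 at P9 and P10 against P8 (0 to 928 genes). For any change it gave 12 to 28 members (2615 to 6810 genes). Between 0 and 1 summed arrays were called both at 36 h and at P9 and P10 (PCDHB without differentiation 1). Without the replicate block, 2, 7, 0 and 0 members were called in the 4 successive comparisons, against 446, 1656, 0 and 37 of 21750 genes. For any change that fit called 20 members and 5564 genes, and in the fractions 0 members and 0 of 18885 genes. Without a count filter 2 were called at P9 and P10, and without the P10 library of differentiation 1, 8. The causes of these changes in count were not tested. Of 349 alternatives for 41 single values none reversed direction, 291 kept their side of the thresholds, 47 lost a call and 11 gained one. These values were chosen because they were called or had an unadjusted edgeR p under 0.05. The latter were summed arrays and non-clustered members with a 2-fold difference or more. That choice favours a kept direction, so the lack of reversals is not read as support. Only called values could lose a call, and the 291 include uncalled values that stayed uncalled. Shared sequence and divided reads limit single PCDHA, PCDHB and PCDHG members, and a common biological variation of 34.0% between whole cultures limits small changes.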
